A study of Mus musculus with 2 samples.

Results

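The genes described here are the nuclear-encoded subunits of the mitochondrial respiratory chain, chosen by gene symbol alone. The symbols start with Ndufa, Ndufb, Ndufc, Ndufs, Ndufv, Uqcr, Cox4i, Cox5, Cox6, Cox7, Cox8 or Atp5, or are Sdha to Sdhd. The choice leaves out Ndufs5, Cox6a2 and names holding -ps, so no value here includes them. Of 32285 genes in the files, 91 were taken, and 89 had at least 20 UMIs (unique molecular identifiers, 1 per captured transcript) over both libraries. Cox8b with 22 UMIs and Ndufa4l2 with 25 lay just inside that minimum, while Cox7b2 with 1 and Cox8c with 0 lay outside. By role, the members were 35 genes of complex I, 4 of complex II, 8 of complex III, 15 of complex IV and 17 of ATP synthase. Another 10 were caught by the prefixes but are assembly factors or accessory proteins (Ndufaf1 to Ndufaf8, Ndufa4l2 and Cox7a2l).

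The cells came from CT-2A tumours, a mouse glioma line implanted into the brain and removed after 14 days, with CD45+ leukocytes taken by magnetic beads. The wildtype library was from wildtype mice, and the other from mice labelled Glut5 KO, which lack the fructose transporter gene Slc2a5. The record's design text says knockdown for the same mice, and the sources used here give neither the number of animals pooled nor how the gene was disrupted. Both groups carried the same tumour line, and both libraries held cells with Xist and cells with Y-linked transcripts, so each held cells of both sexes. With a single library for each genotype, differences carry no replicate check and no p-value, and an effect of genotype and one of library preparation cannot be told apart. Values in brackets are exact 95% intervals, for counting error alone.

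The respiratory chain sits in the inner mitochondrial membrane. Complex I takes electrons from NADH and complex II from succinate, complex III passes them to cytochrome c, and complex IV hands them to oxygen, while ATP synthase uses the proton gradient that results. Most subunits are encoded in the nucleus and imported, and a small core is encoded by mitochondrial DNA. Microglia and tumour macrophages are known to shift between oxidative and glycolytic metabolism when activated, and dividing cells build mitochondria as they grow.

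Depth was 116105873 UMIs in 11495 wildtype barcodes and 96851696 UMIs in 12165 Glut5 KO barcodes, and 188 barcode sequences occurred in both libraries. After filtering, 10582 wildtype and 11234 Glut5 KO cells remained, with medians of 8125 and 6395.5 UMIs. Slc2a5 was counted at 384 UMIs in the wildtype library and 1 in the Glut5 KO library, and microglia-like cells held 326 and 0 of them. Cells were assigned to classes by marker transcripts, and each class is called -like for that reason. The gates held 1380 wildtype and 1281 Glut5 KO microglia-like cells, 5073 and 4219 monocyte/macrophage-like cells, and 283 and 539 T cell-like cells. All 11 microglia markers were detected in microglia-like cells. They summed to 10840 CPM (counts per 1000000 UMIs of the class) in wildtype and 11960 CPM in Glut5 KO. The 15 monocyte/macrophage markers summed to 1430 and 1635 CPM there. The gate required a microglia marker sum above the monocyte/macrophage one, so these levels are no independent check of identity. Monocyte/macrophage markers summed to 2442 and 2498 CPM in T cell-like cells, beside 3782 and 5028 CPM of T cell markers. In type 1 conventional dendritic cell-like cells they summed to 2289 and 2483 CPM, beside 2146 and 1960 CPM of that class's markers. NK cell-like cells held 1507 and 1282 CPM of them, beside 8825 and 7849 CPM of NK cell markers. Cells positive for more than 1 class (605 and 754) or for none (1877 and 2601) were left out.

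Because many members differed in one direction, 3 of their promoters are shown from RefSeq (GRCm38.p6), each as the 150 bases before the gene's start, 5′ to 3′ on the gene's strand. Ndufa4 is shown because it had the lowest ratio of the complex IV members. Ndufa8, of complex I, and Uqcr11, of complex III, are shown because each had the lowest microglia ratio among members holding an NRF1 or an ETS motif in that stretch. Capitals mark the motif letters GCATGCGC for NRF1 and CCGGAAG for ETS, both known regulators of respiratory genes. The stretches lie at chr6:11907451-11907600, chr2:36049339-36049488 and chr10:80406822-80406971, all on the minus strand. Starts here are those of RefSeq. By the GENCODE coordinates used for the genes elsewhere, the starts are 11907497, 36049406 and 80406830, inside these stretches.
Ndufa4: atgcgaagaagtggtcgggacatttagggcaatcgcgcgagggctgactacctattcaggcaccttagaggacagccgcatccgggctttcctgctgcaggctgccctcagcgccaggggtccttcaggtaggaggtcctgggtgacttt
Ndufa8: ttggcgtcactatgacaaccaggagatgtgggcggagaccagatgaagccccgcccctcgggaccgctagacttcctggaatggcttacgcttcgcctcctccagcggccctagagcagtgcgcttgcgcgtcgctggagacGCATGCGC
Uqcr11: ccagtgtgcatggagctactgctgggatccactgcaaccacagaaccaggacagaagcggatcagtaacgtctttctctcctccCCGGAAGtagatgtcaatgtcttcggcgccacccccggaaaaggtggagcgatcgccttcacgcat
In these 150 bases, Ndufa4 held none of the 3 motifs searched, Ndufa8 held the NRF1 letters starting 8 bases before the start, and Uqcr11 held the ETS letters starting 66 bases before it. RefSeq promoters were matched for 74 of the 89 members, and both strands were searched over 250 bases before and 50 after the start. The NRF1 letters were in 12 members (16.2%), against 3.05% of 27025 genes, and the ETS letters were in 19 (25.7%), against 9.93%. The YY1 letters AAGATGGC were in 11 members (14.9%), against 3.19%. At least 1 of the 3 was in 35 members (47.3%), against 14.9% of genes. The 27025 genes are all those with a RefSeq promoter, expressed in these cells or not. They were not matched to the members by level. In 0 of the 74 promoters did matches of different motifs overlap, and a match is a description of the sequence, not a bound site.

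Summed over the 89 members and over all cells of a class, respiratory chain transcripts were most abundant in T cell-like cells. In wildtype, T cell-like cells stood at 2.48% of UMIs, cells with markers of CD45-negative types (stromal, endothelial, tumour or glial) at 2.35%, and type 1 conventional dendritic cell-like (cDC1-like) cells at 2.30%. Monocyte/macrophage-like cells stood at 2.27%, NK cell-like cells at 2.25%, cDC2-like cells at 2.05%, and microglia-like and plasmacytoid dendritic cell-like (pDC-like) cells both at 2.01%. Among the 9 classes that had 50 or more cells per library, migratory dendritic cell-like cells stood lowest in wildtype, at 1.75%. In Glut5 KO they stood at 1.72%, next to microglia-like cells at 1.71%. The plot of summed shares by class shows T cell-like cells at the top in both libraries. By the median cell the order differed. In wildtype, cells with markers of CD45-negative types had 2.32%, cDC1-like cells 2.30% and T cell-like cells 2.28%. In Glut5 KO the first stood at 2.14% and T cell-like cells at 2.13%.

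**Figure D1:**
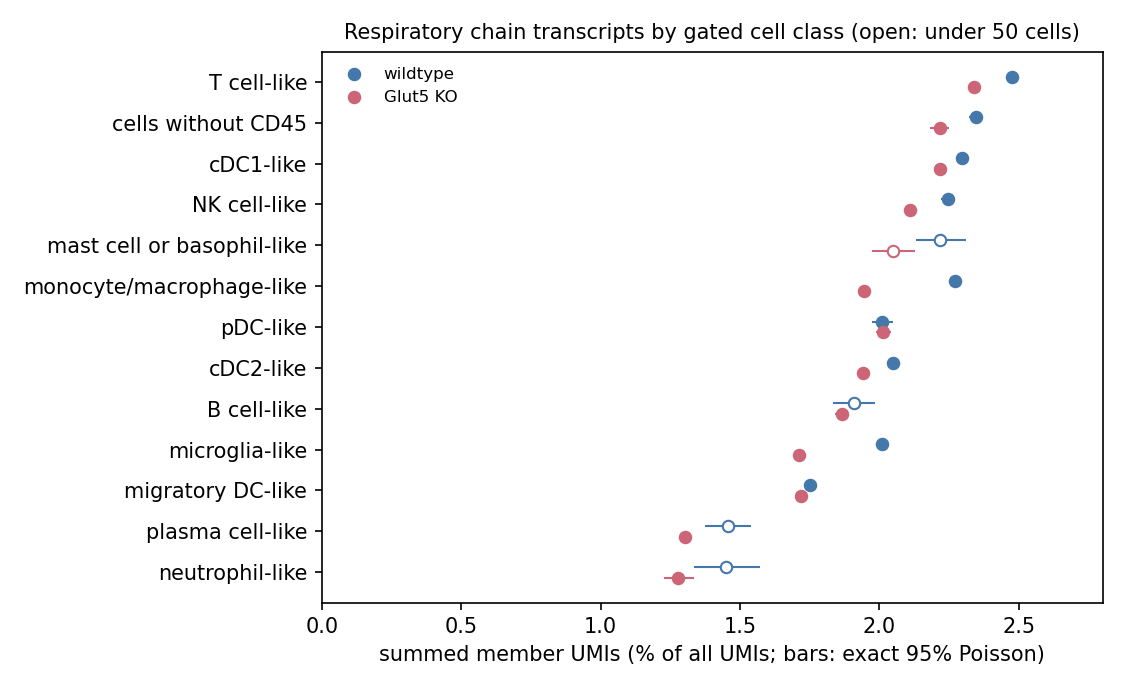
Summed UMIs of the 89 members as a percent of all UMIs of each gated class (x axis), 1 point per library, with exact 95% Poisson intervals for counting error. Open points are libraries with under 50 cells of the class. The gap between libraries is widest in monocyte/macrophage-like cells (2.27% and 1.94%) and microglia-like cells (2.01% and 1.71%), and pDC-like points overlap.

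The share was lower in Glut5 KO in both tumour myeloid classes. In microglia-like cells it was 2.01% in wildtype and 1.71% in Glut5 KO, a log2 ratio of -0.233 [-0.242 to -0.225]. In monocyte/macrophage-like cells it was 2.27% and 1.94%, a log2 ratio of -0.225 [-0.229 to -0.221]. Ratios under 0 and smaller in size were seen in NK cell-like cells (-0.091 [-0.112 to -0.069]), cells with markers of CD45-negative types (-0.083), T cell-like cells (-0.082 [-0.096 to -0.068]), cDC2-like cells (-0.078), cDC1-like cells (-0.051) and migratory dendritic cell-like cells (-0.028). In pDC-like cells (74 and 162 cells) the ratio was 0.003 [-0.03 to 0.037]. The order of the classes depended on which cells were used. In cells with no cell cycle UMI the ratio was -0.242 in NK cell-like cells (114 and 131 cells) and -0.162 in cDC1-like cells (27 and 25 cells), larger in size than the -0.133 of microglia-like and -0.128 of monocyte/macrophage-like cells. In the same split it was above 0 in migratory dendritic cell-like cells, at 0.03 [-0.01 to 0.07], and in cells with markers of CD45-negative types, at 0.11 from 6 and 14 cells. With the median gene set to 0, the last class stood at 0.01. Whether the ratios differ between classes could not be tested with 1 library per genotype. Per cell, the quartiles of wildtype microglia-like cells were 1.58% and 2.48%, with a median of 1.99%, and those of Glut5 KO cells 1.38% and 2.08%, with a median of 1.69%. The cell distributions therefore overlapped widely.

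Single members were read against all genes with at least 100 UMIs in a class. In microglia-like cells 84 of the 89 members passed that minimum. Of these, 33 (39.3%) were at least 1.2-fold lower in Glut5 KO, against 20% of 9477 genes, and none was at least 1.2-fold higher, against 9.28% of genes. No member was past 1.5-fold in either direction, where 4.54% of genes were lower and 1.96% higher. The median member ratio was -0.25, against -0.06 over all genes, and 80 members had a ratio under 0, against 59.2% of genes. The 5 members under the minimum were Cox4i2, Cox6b2, Cox7a1, Cox8b and Ndufa4l2.

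Among monocyte/macrophage-like cells 87 members passed the minimum. There, 24 (27.6%) were at least 1.2-fold lower, against 21.3% of 11308 genes, a share close to the background, and 1 was higher, against 12.4%. At 1.5-fold, 1 member was lower (Ndufa4), against 5.08% of genes, and 1 higher (Cox4i2), against 4.67%. The median member ratio was -0.23, against -0.07 over all genes, and 81 members had a ratio under 0, against 61.8% of genes. Of the 84 members that passed in both classes, 15 (17.9%) were at least 1.2-fold lower in both, against 9.68% of the 9349 genes that passed in both. The 15 are 45.5% of the 33 lower in microglia-like cells and 65.2% of the 23 lower in monocyte/macrophage-like cells; both comparisons rest on the same pair of libraries. In T cell-like cells 4 of 82 members were at least 1.2-fold lower, against 12.9% of 7184 genes, and none was higher, against 22%. In the other classes the members lower were also under the background share. They were 3 of 78 in cDC1-like cells (12.1% of genes), 2 of 82 in cDC2-like cells (11.5%), 7 of 74 in migratory dendritic cell-like cells (13.3%), 6 of 73 in pDC-like cells (17.0%), 8 of 77 in NK cell-like cells (12.3%) and 14 of 78 in cells with markers of CD45-negative types (29.0%). At least 1.2-fold higher in the same order were 1 (16.6% of genes), 0 (14.8%), 2 (14.4%), 8 (19.6%), 3 (22.8%) and 2 (16.6%). The background share depends on the UMI minimum, and members were not matched to other genes by level. For lower genes in T cell-like cells it was 19.1% with a minimum of 20 UMIs and 8.86% with 500. At 500 UMIs, 4 of 73 members were lower there.

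**Figure D2:**
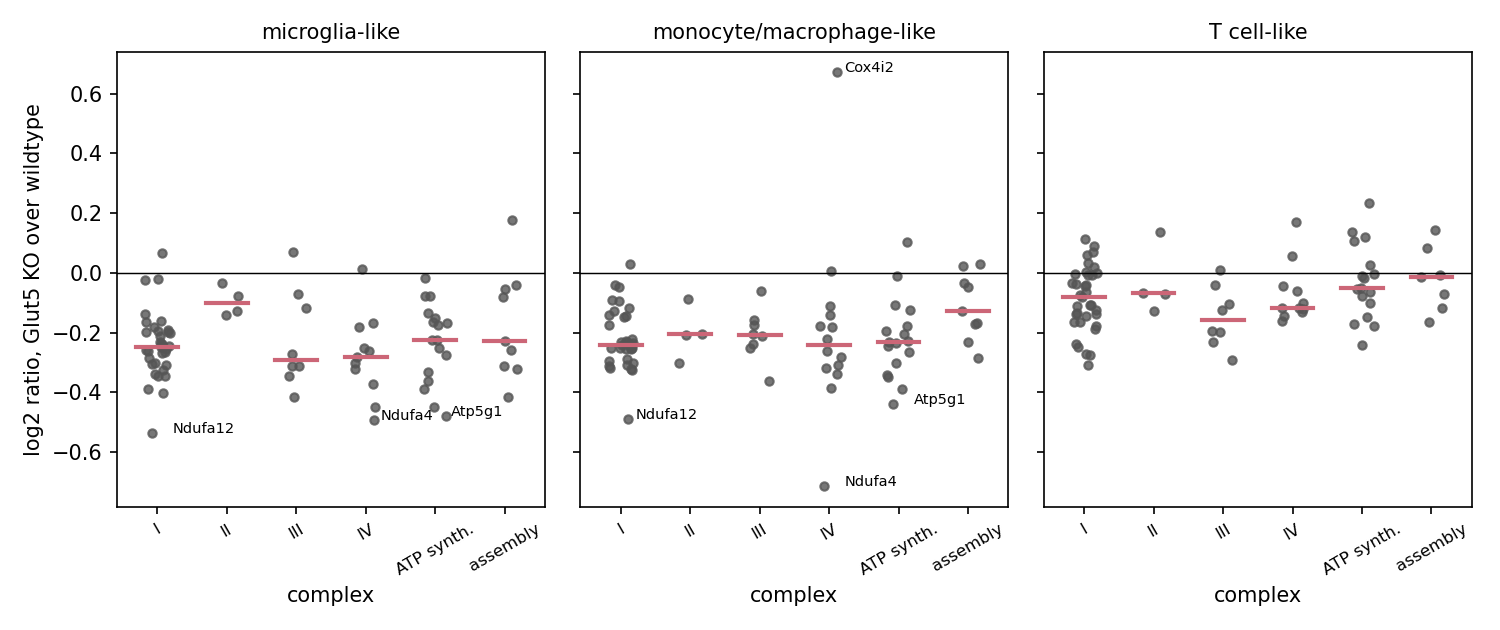
Log2 ratio of Glut5 KO over wildtype (y axis) for each member with at least 100 UMIs in the class, 1 point per gene, grouped by complex (x axis), with the group median as a line. Most points lie under 0 in microglia-like and monocyte/macrophage-like cells, where Ndufa4, Ndufa12 and Atp5g1 are among the lowest, and nearer 0 in T cell-like cells.

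Complex I, the NADH dehydrogenase, had a summed log2 ratio of -0.24 in microglia-like cells and -0.22 in monocyte/macrophage-like cells. In microglia-like cells 13 of its 35 members (37.1%) were at least 1.2-fold lower, against 20% of genes. There 34 had a ratio under 0, against 59.2% of genes. In monocyte/macrophage-like cells 9 of 35 (25.7%) were at least 1.2-fold lower, against 21.3%. Its lowest member in both classes was Ndufa12, an accessory subunit. Ndufa12 stood at 143 CPM in wildtype and 98.3 CPM in Glut5 KO microglia-like cells (-0.54 [-0.65 to -0.42]), and at 156 and 111 CPM in monocyte/macrophage-like cells (-0.49 [-0.54 to -0.44]). In T cell-like cells Ndufa12 was at 146 and 140.0 CPM (-0.06 [-0.25 to 0.12]). Its ratio was also under 0 in pDC-like cells (-0.64, from 77 and 85 UMIs) and migratory dendritic cell-like cells (-0.52, from 106 and 63 UMIs). In cells with markers of CD45-negative types it was -0.34, and the intervals of all these classes except T cell-like cells lay under 0. The intervals included 0 in cDC1-like (-0.21), cDC2-like (-0.16) and NK cell-like cells (0.07). Ndufab1, the mitochondrial acyl carrier protein, was next in microglia-like cells at 181 and 137 CPM (-0.40). At the other end, Ndufa6 was at 227 and 238 CPM in microglia-like cells (0.07 [-0.01 to 0.14]), and Ndufa5 at 90.9 and 92.7 CPM in monocyte/macrophage-like cells (0.03 [-0.04 to 0.09]).

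Complex II, the succinate dehydrogenase, is the one complex with no mitochondrially encoded subunit. None of its 4 genes was 1.2-fold lower in microglia-like cells, against 20% of genes. Sdhb, an iron-sulfur subunit, was at 225 and 204 CPM (-0.14 [-0.22 to -0.06]). Sdhd was at 105 and 96.4 CPM (-0.13), and Sdha, the flavoprotein, at 80.3 and 76.2 CPM (-0.08). Sdhc, a membrane anchor, was at 47.9 and 46.7 CPM in microglia-like cells (-0.04 [-0.21 to 0.14]) and at 57.4 and 46.6 CPM in monocyte/macrophage-like cells (-0.30 [-0.39 to -0.22]). Summed, the complex had a ratio of -0.12 in the first class and -0.19 in the second.

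Complex III, the cytochrome bc1 complex, had the largest share of members at least 1.2-fold lower in microglia-like cells. They were 5 of 8 (62.5%), against 20% of genes. In monocyte/macrophage-like cells 1 of 8 (12.5%) was lower, against 21.3%. Uqcrq was lowest in microglia-like cells at 316 and 237 CPM (-0.41 [-0.49 to -0.34]), followed by Uqcrb at 259 and 204 CPM (-0.34). Uqcr11, whose promoter is printed above, was lowest in monocyte/macrophage-like cells at 234 and 182 CPM (-0.36). Uqcrh, the hinge protein, did not go with the others. It stood at 388 and 407 CPM in microglia-like cells (0.07 [0.01 to 0.13]) and at 392 and 375 CPM in monocyte/macrophage-like cells (-0.06 [-0.09 to -0.03]).

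Complex IV, the cytochrome c oxidase, held the lowest member of monocyte/macrophage-like cells. Ndufa4, first assigned to complex I and now counted as a complex IV subunit, was at 335 CPM in wildtype and 204 CPM in Glut5 KO (-0.71 [-0.75 to -0.67]), from 17635 and 7602 UMIs. In microglia-like cells it was at 358 and 254 CPM (-0.49 [-0.56 to -0.42]). Cox5a, a matrix-side subunit, was at 455 and 334 CPM in microglia-like cells (-0.45), and Cox6a1 at 382 and 292 CPM in monocyte/macrophage-like cells (-0.39). Cox7c was level in both, at 322 and 325 CPM (0.01 [-0.05 to 0.08]) and at 366 and 368 CPM (0.01 [-0.03 to 0.04]).

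ATP synthase had a summed ratio of -0.24 in both myeloid classes. Its 17 members all had ratios under 0 in microglia-like cells, against 59.2% of genes. A set of 3 genes encodes the same mature c-ring protein with different import sequences. Of these, Atp5g1 was at 383 and 275 CPM in microglia-like cells (-0.48 [-0.55 to -0.41]) and at 446 and 329 CPM in monocyte/macrophage-like cells (-0.44). Atp5g3 was at 551 and 421 CPM in microglia-like cells (-0.39), and Atp5g2 at 889 and 787 CPM (-0.17 [-0.22 to -0.13]). The intervals of Atp5g1 and Atp5g2 did not overlap in microglia-like cells. Atp5o, part of the stalk, was at 233 and 170.3 CPM in microglia-like cells (-0.45), and Atp5b, the catalytic beta subunit, at 515 and 393 CPM in monocyte/macrophage-like cells (-0.39). Atp5k was at the upper end, at 66.8 and 66.0 CPM in microglia-like cells (-0.02) and 75.5 and 81.1 CPM in monocyte/macrophage-like cells (0.10 [0.04 to 0.17]).

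The 10 assembly or accessory genes had a summed ratio of -0.03 [-0.09 to 0.04] in microglia-like cells and -0.09 in monocyte/macrophage-like cells. The sum in microglia-like cells is weighted by Cox7a2l, a factor that joins complexes III and IV, which was at 169.6 and 192 CPM (0.18 [0.09 to 0.27]). The other 8 of the 9 that passed the minimum had ratios under 0, with a median of -0.23 over the 9. At least 1.2-fold lower were 3 of the 9, against 20% of genes. They were Ndufaf5 (-0.42 [-0.86 to 0.01]), Ndufaf6 (-0.32 [-0.69 to 0.03]) and Ndufaf3 (-0.31 [-0.50 to -0.13]), the last named after its values were seen. Cox7a2l in monocyte/macrophage-like cells was at 168 and 164 CPM (-0.03).

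The tissue-specific isoforms among the members were close to absent. This does not cover Cox6a2, which the choice of genes left out. Cox4i2, the isoform of Cox4i1 found mainly in lung and induced by low oxygen, had 126 and 142 UMIs in monocyte/macrophage-like cells, or 2.39 and 3.82 CPM (0.67 [0.32 to 1.03]), and was the 1 member at least 1.2-fold higher there. Cox4i1, the common isoform, was at 1101 and 906 CPM in the same cells (-0.28). Cox7a1, the heart and muscle isoform, had 183 and 102 UMIs in that class, and Cox6b2, the testis isoform, had 180 and 106. Cox8b had 1 and 0, and Ndufa4l2 had 3 and 0.

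Ndufa4 was followed across classes because its ratio was the lowest of all members in monocyte/macrophage-like cells. Next to it is given AA467197 (chromosome 2, 122636986 to 122641191, plus strand, GRCm38), a paralogue of Ndufa4 known as NMES1, which is known to replace Ndufa4 in complex IV during inflammation. It is no member and was chosen after its values were seen. The hairpin of the microRNA Mir147, known to target Ndufa4, lies inside that gene by coordinates. In monocyte/macrophage-like cells AA467197 was at 37.3 CPM in wildtype and 81.4 CPM in Glut5 KO (1.13 [1.04 to 1.21]), opposite to Ndufa4. In microglia-like cells AA467197 was at 5.19 and 4.48 CPM (-0.21 [-0.79 to 0.35]), from 68 and 45 UMIs, beside an Ndufa4 ratio of -0.49. AA467197 was at 2.09 and 11.8 CPM in those under 3000 UMIs, and at 5.31 and 3.95 CPM in those with at least 3000. Whether AA467197 or Mir147 bears on Ndufa4 in these cells was not tested.

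The lowest Ndufa4 levels were in classes with the most AA467197. Migratory dendritic cell-like cells had Ndufa4 at 169.8 and 140.0 CPM and AA467197 at 236 and 177 CPM. In cDC2-like cells Ndufa4 was at 195 and 161 CPM and AA467197 at 146 and 169 CPM. T cell-like cells had 415 and 382 CPM of Ndufa4 with 52.3 and 56.7 CPM of AA467197, and cDC1-like cells had 339.9 and 367 CPM with 18.9 and 17.9 CPM. Within monocyte/macrophage-like cells, gated monocytes had Ndufa4 at 194 and 145 CPM with AA467197 at 145 and 176 CPM, while gated macrophages had 389.6 and 263 CPM with 10.5 and 28.7 CPM. Ndufa4 was lower in Glut5 KO within each, by ratios of -0.41 and -0.57. The gated monocytes and macrophages were 1306 and 2024 cells in wildtype, or 25.7% and 39.9% of the class. In Glut5 KO they were 1297 and 1353 cells, or 30.7% and 32.1%. The other cells of the class were in neither gate. The class-wide Ndufa4 ratio was -0.71, and the part of this mix in it was not tested.

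**Figure D3:**
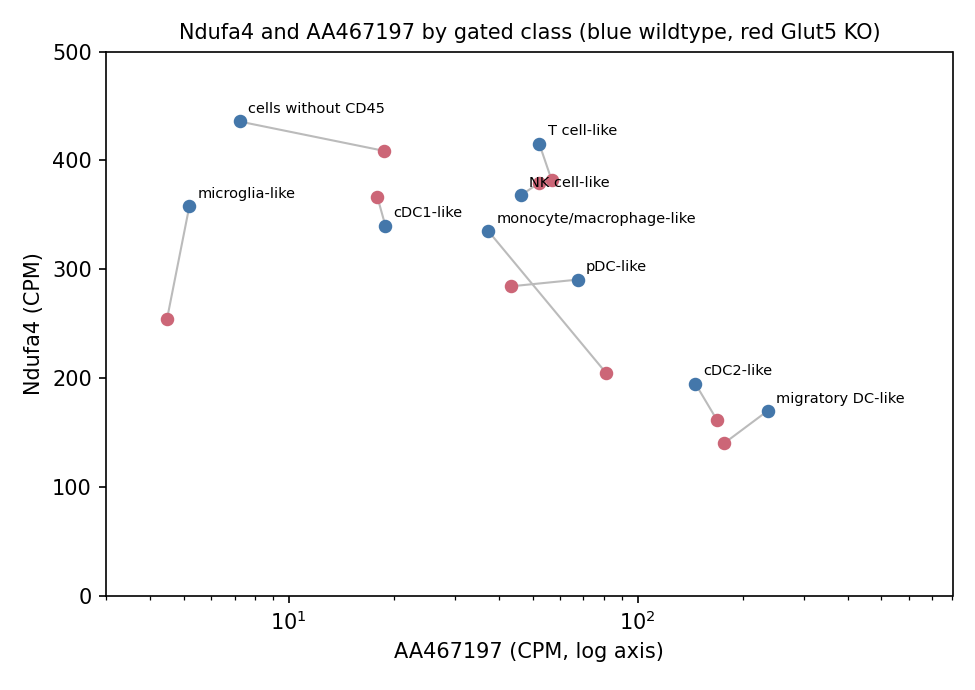
Ndufa4 level (y axis, CPM) against AA467197 level (x axis, CPM, log scale) in the classes with at least 50 cells per library, 1 point per library, with a line joining the 2 libraries of a class. Migratory dendritic cell-like and cDC2-like cells lie at the lower right, and monocyte/macrophage-like cells move from 37.3 to 81.4 CPM of AA467197 as Ndufa4 goes from 335 to 204 CPM.

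Cell division moved with the result in both myeloid classes. Over the 25 cell cycle genes listed, the summed level was 1590 CPM in wildtype and 774 CPM in Glut5 KO microglia-like cells, and 1793 and 955 CPM in monocyte/macrophage-like cells. All 25 were at least 1.2-fold lower in both, against 20% and 21.3% of genes. In T cell-like cells the sums were 3122 and 3228 CPM. Cells with at least 5 cell cycle UMIs had more respiratory chain transcripts than cells with none in each of these classes: in wildtype microglia-like cells 2.21% against 1.73% of UMIs, and in wildtype T cell-like cells 2.61% against 2.01%.

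Among cells with no cell cycle UMI the ratio was smaller but still under 0, at -0.13 [-0.16 to -0.11] in microglia-like cells (332 and 485 cells) and -0.13 [-0.14 to -0.12] in monocyte/macrophage-like cells (1277 and 1497 cells). At least 1.2-fold lower in these cells were 16 of 78 members in microglia-like cells, against 14.7% of genes, and 4 of 84 in monocyte/macrophage-like cells, against 12.7%. Cells with at least 5 cell cycle UMIs gave -0.16 and -0.18. Ndufa4 was lower in the cells without cell cycle UMIs too, at 287 and 227 CPM in microglia-like cells (-0.33) and 215 and 161 CPM in monocyte/macrophage-like cells (-0.42).

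In microglia-like cells under 3000 UMIs (281 and 437 cells) the ratio was -0.39, and in those with at least 3000 it was -0.23. Depth differed between the libraries, so the cell cycle split was repeated with each cell thinned to 2000 UMIs. The thinning served only to sort the cells. Ratios after it were taken from all UMIs of the sorted cells, so they are not matched for depth. Cells with no cell cycle UMI after thinning could hold some before it. Then 47.1% [44.2% to 49.9%] of 1190 wildtype and 60.0% [56.8% to 63.1%] of 970 Glut5 KO microglia-like cells had no cell cycle UMI, with 190 and 311 shallower cells left out. Without thinning the shares were 24.1% and 37.9%, at median depths of 8534 and 6083 UMIs. After thinning, T cell-like cells had shares of 37.3% and 37.5%. Microglia-like cells with none after thinning had a respiratory chain ratio of -0.16 [-0.18 to -0.15], and those with any had -0.24 [-0.25 to -0.23]. Monocyte/macrophage-like cells gave -0.17 with none and -0.21 with any. T cell-like cells gave -0.14 [-0.17 to -0.11] with none, larger in size than their whole-class -0.08, and -0.06 with any. The part of cell division in the whole-class ratio was not tested beyond these splits. By class, the median ratio over cell cycle genes was -1.07 in microglia-like cells, beside a member sum of -0.233. Monocyte/macrophage-like cells had -0.94 beside -0.225, and cells with markers of CD45-negative types had -1.55 beside -0.08. The cell cycle median was above 0 in cDC2-like cells (0.44 beside -0.08) and cDC1-like cells (0.14 beside -0.05). It was 0.07 beside -0.08 in T cell-like cells and 0.05 beside -0.09 in NK cell-like cells. Whether the 2 values go together across classes was not tested.

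**Figure D4:**
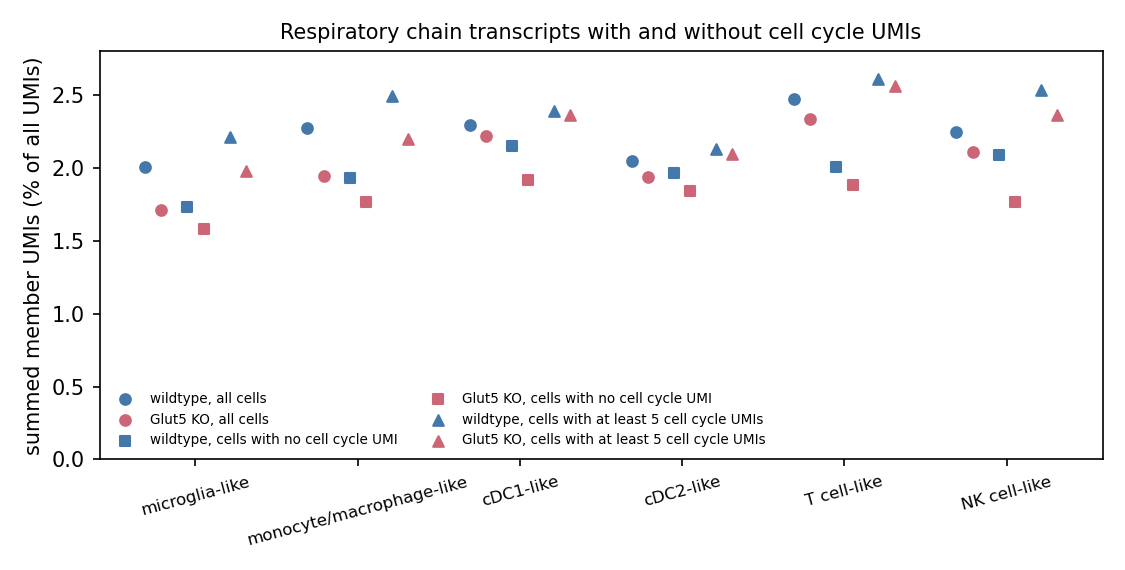
Summed member UMIs as a percent of all UMIs (y axis) in 6 classes (x axis), for all cells (circles), cells with no cell cycle UMI (squares) and cells with at least 5 (triangles), 1 point per library. In microglia-like cells the wildtype points are 2.01%, 1.73% and 2.21%, and the Glut5 KO points 1.71%, 1.58% and 1.98%.

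The sex of the cells also moved with the microglia value. Microglia-like cells with Xist and no Y-linked UMI had a ratio of -0.16 (502 and 450 cells), and those with Y-linked and no Xist UMI had -0.31 (299 and 231 cells). In the first set 14 of 82 members were at least 1.2-fold lower, against 20% of genes, and in the second 53 of 81, against 31.4%. Monocyte/macrophage-like cells gave -0.24 in both sets. T cell-like cells gave -0.17 with Xist and -0.05 with Y-linked UMIs. The part of sex in these values was not tested, since the animals behind the cells are not known.

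Scaling bears on the counts of members as well. With each class's median gene set to a ratio of 0, the summed ratio was -0.18 in microglia-like and -0.15 in monocyte/macrophage-like cells, since the median gene stood at -0.06 and -0.07. On that scale 20 of 84 members were at least 1.2-fold lower in microglia-like cells, against 15.1% of genes, and 9 of 87 in monocyte/macrophage-like cells, against 14.6%.

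The 13 mitochondrially encoded subunits were nearer 0 than the nuclear ones in microglia-like cells, and close to them in monocyte/macrophage-like cells taken whole. In the first class they made up 0.683% of UMIs in wildtype and 0.670% in Glut5 KO, a ratio of -0.03 [-0.04 to -0.01], against -0.23 for the nuclear members. None was 1.2-fold lower, against 20% of genes, and mt-Atp8 was highest at 143 and 169 CPM (0.24). The mitochondrial genes in monocyte/macrophage-like cells stood at 0.583% and 0.506% (-0.20 [-0.21 to -0.20]) beside -0.22 for the nuclear members. There 7 of 13 were at least 1.2-fold lower, against 21.3% of genes. Parts of that class differed. Gated macrophages had -0.06 for the mitochondrial genes beside -0.21 for the nuclear members, and gated monocytes -0.25 beside -0.12. In microglia-like cells under 3000 UMIs the mitochondrial ratio was -0.46 beside -0.39. In T cell-like cells the ratio was 0.08 [0.05 to 0.10]. Cytosolic ribosomal protein genes were at 13.2% and 13.6% of UMIs in microglia-like cells (0.04) and 14.2% and 12.7% in monocyte/macrophage-like cells (-0.16).

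Other mitochondrial lists in microglia-like cells are read against the 20% of all genes that were at least 1.2-fold lower. The mitochondrial ribosome had 49 of 78 genes at least 1.2-fold lower and a median ratio of -0.33, with Mrpl49 lowest at 27.5 and 15.4 CPM (-0.83). Assembly factors of the chain had 16 of 39 lower and 1 higher (median -0.22), from Cmc2 at -0.73 to Timmdc1 at 0.35. Import and cristae genes had 11 of 26 lower (median -0.22), led by Timm13 at 201.5 and 142 CPM (-0.50). Electron carriers and transporters had 8 of 20 lower (median -0.23), led by Coq6 (-0.54). Closer to the background, the citric acid cycle had 5 of 21 lower (23.8%, median -0.17), led by Idh2 (-0.46). Regulators of mitochondrial genes were under it, with 2 of 12 lower (16.7%, median -0.08).

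Glycolysis did not follow the chain. In microglia-like cells 1 of 15 glycolytic genes was at least 1.2-fold lower, against 20% of genes, and 1 higher, against 9.28%. The median was -0.03, from the enzyme Eno1 at -0.47 to the glucose transporter Slc2a1 at 82.3 and 117 CPM (0.51). Genes controlled by hypoxia had a median of 0.13, with 3 of 11 higher, against 9.28% of genes, and 2 lower, against 20%. Slc2a1 is in both lists and is 1 of the 3 higher. Vegfa, a vessel growth factor, was at 7.17 and 14.5 CPM (1.02), and Egln3, an oxygen sensor, at 7.94 and 17.9 CPM (1.17). In monocyte/macrophage-like cells 6 of 17 glycolytic and 6 of 13 hypoxia genes were at least 1.2-fold higher, against 12.4% of genes, with medians of 0.09 and 0.25. Dissociation and immediate-early genes had medians of -0.04 and 0.21 in the 2 classes.

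Taking the mean of the 2 libraries in the 9 classes with at least 50 cells in each, the 82 members with at least 100 UMIs in their highest class had a median fold of 1.81 from lowest to highest class, and 34 exceeded 2-fold. The narrowest were Ndufa7 (1.24-fold), Ndufa3 (1.28-fold), Cox6b1 (1.31-fold) and Cox4i1 (1.31-fold). Migratory dendritic cell-like cells were lowest for 48 of these 82 members and microglia-like cells for 17. Cells with markers of CD45-negative types were highest for 34, and cDC1-like and T cell-like cells for 12 each.

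The 6 widest members were lowest in migratory dendritic cell-like cells. Among assembly factors, Ndufaf4 went from 5.94 to 52.5 CPM (8.86-fold), Ndufaf6 from 4.32 to 30.7 CPM (7.11-fold, highest in cDC1-like cells) and Ndufaf2 from 14.9 to 91.3 CPM (6.11-fold). Among subunits, Ndufa5 went from 32.1 to 158 CPM (4.92-fold), Sdhc from 19.3 to 91.5 CPM (4.75-fold) and Ndufa12 from 56.0 to 216 CPM (3.86-fold). Other than Ndufaf6, these were highest in cells with markers of CD45-negative types. In that class Ndufaf2 was at 88.9 CPM in wildtype and 93.8 CPM in Glut5 KO, and Ndufa5 at 168 and 147 CPM, so both libraries showed the high level. The low ends of Ndufaf4 and Ndufaf6 rest on 17 and 13 UMIs.

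Slc2a5 lies on chromosome 4, so the 5 members there (Ndufaf4, Ndufaf6, Ndufb6, Sdhb and Uqcrh) and the 3 on the X (Ndufa1, Ndufb11 and Cox7b) were looked at apart. Ndufb6 was at 130.3 and 103 CPM in microglia-like cells (-0.34 [-0.46 to -0.23]), while Uqcrh and Ndufaf4 were near 0 there. On the X, Ndufa1 was at 155 and 153 CPM (-0.02), Ndufb11 at 215 and 181 CPM (-0.25) and Cox7b at 208 and 161 CPM (-0.37). Without these 8 genes the summed ratio was -0.24 in microglia-like cells and -0.23 in monocyte/macrophage-like cells.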

How the data were processed

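The deposited values are counts of UMIs per gene and barcode from a 10x 5′ kit, not normalized, per the file headers. The submitters' processing notes name Cell Ranger 3.1.0 with mm10. A different version, 7.0.1, stands in the matrices, per the file headers. The annotation release and any counting of introns: not given in the sources used here. Gene coordinates are from GENCODE M21 (GRCm38), matched by gene ID. Barcodes with under 300 genes or at least 10% mitochondrial UMIs were removed, then the top 8% of doublet scores in each library (scanpy 1.11.5, Scrublet), because the automatic threshold marked 0 wildtype and 2701 Glut5 KO barcodes.

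Each cell was gated by the UMIs per 10000 of marker genes, with thresholds set after seeing the data; at 0.8 to 1.25 times the threshold lay 116 and 103 microglia-like and 143 and 299 monocyte/macrophage-like cells. Counts were summed per class and library and divided by the class's total (CPM). Log2 ratios are Glut5 KO over wildtype, with 0.5 added to each count of a single gene. Level intervals are exact Poisson, ratio intervals conditional exact binomial and share intervals Clopper-Pearson, all for counting error only. A gene counted as lower or higher from 1.2-fold; levels of different genes are not compared. With numpy 2.4.6, pandas 2.3.3 and scipy 1.17.1, on simulated counts the ratios and intervals were recovered.

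The genes and lists were chosen with earlier results of these data known. Named genes are the 2 lowest and 2 highest members per complex in both myeloid classes, the 6 widest across classes, isoform families, members on chromosome 4 or X, and the ends of the other lists. Of the genes that this rule names, 1 is not reported here. Alternatives changed the denominator, scaling, doublets, classes, cell weights, cell cycle, depth, sex, mitochondrial limit and UMI minimum. Those on microglia depth, monocytes, macrophages and myeloid transcripts in T cells, and the thinning, were chosen after seeing the data.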

Additional observations from a re-analysis of the deposited data

Results flagged for a closer look

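Uqcrh, the hinge protein of complex III, went opposite ways in the 2 main myeloid classes, with a log2 ratio of 0.069 in microglia-like cells and -0.062 in monocyte/macrophage-like cells. The opposite signs depend on the scaling. The median gene stood at -0.055 and -0.071 in these classes, so Uqcrh was not under it in either. The difference between the classes was not tested.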

How the results depend on the processing

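No paired analysis was possible because there is 1 library per genotype. The summed ratio stayed under 0 in all alternatives run, 13 in microglia-like, 14 in monocyte/macrophage-like and 13 in T cell-like cells; values below are in that order of classes where several are given. With median scaling it was -0.18, -0.15 and -0.12. In clusters named by markers it was -0.25, -0.19 and -0.12. With equal weight per cell it was -0.22, -0.21 and -0.13. In cells of 3000 to 15000 UMIs it was -0.21 in microglia-like and -0.20 in monocyte/macrophage-like cells. In cells with no cell cycle UMI it was -0.13 in both. In Xist cells it was -0.16, -0.24 and -0.17, and in Y-linked cells -0.31, -0.24 and -0.048. With a denominator free of ribosomal, mitochondrial and member genes it was -0.26 in monocyte/macrophage-like and -0.11 in T cell-like cells. Gated monocytes gave -0.12, gated macrophages -0.21, and T cell-like cells low in myeloid transcripts -0.10.

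The count of members at least 1.2-fold lower moved more. In microglia-like cells (33) it was 20 of 84 with median scaling (15.1% of genes), 16 of 78 with no cell cycle UMI (14.7%), 14 of 82 in Xist cells (20%) and 53 of 81 in Y-linked cells (31.4%). In monocyte/macrophage-like cells (24) it was 43 of 87 with the reduced denominator (24.9%), 9 of 87 with median scaling (14.6%), 15 of 87 in clusters (16.4%) and 4 of 84 with no cell cycle UMI (12.7%). In T cell-like cells (4 of 82, against 12.9% of genes) it was 7 with the reduced denominator (14.9% of genes), 8 with median scaling (15.5%) and 9 with equal weights (15.6%), each of 82. There it was 11 of 46 with no cell cycle UMI (23.3%) and 24 of 73 in Xist cells (20.5%), so in Xist cells the members were above the background share. The cause of these moves was not tested. Depth limits genes with few UMIs, such as Ndufaf5, Ndufaf6 and Cox4i2.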
